A study of Mus musculus with 8 samples.

Results

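Histone H3 dimethylated on lysine 9 (H3K9me2) was measured around the open chromatin of regulatory T cells (Treg) from the tumours of wild-type mice. The data are 3 lists of H3K9me2 peaks from tumour Treg of the genotype given as JMJD1CWT, called WT1, WT2 and WT3 here, and 1 list of ATAC-seq peaks from tumour Treg of the same genotype, so 4 of the 8 libraries of the series. An open site is a peak of that ATAC list, and each base of the autosomes was assigned to the centre of its nearest open site. In each WT library the share of sequence lying inside H3K9me2 peaks (the covered percent) was then read at 0-0.5, 0.5-1, 1-2, 2-5, 5-10, 10-50 and over 50 kb from the centre. Open sites were also split by whether their centre lay within 1.0 kb of either end of a protein-coding gene, and by quartile of their ATAC tag count. The ATAC list held 27655 peaks, of which 27012 on the autosomes were used. The H3K9me2 lists held 113815, 126458 and 101728 autosomal peaks in WT1, WT2 and WT3.

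Mice were C57BL/6 and 8 to 12 weeks old, and Treg were taken from digested tumour by magnetic beads followed by a fluorescence sort. CUT&RUN served for H3K9me2: an antibody brings a nuclease to the marked nucleosomes and the released DNA is sequenced. ATAC-seq, in which a transposase inserts adapters into accessible DNA, was represented by a single tumour library, so the open sites have no replicate. The other libraries used for comparison were 3 H3K9me2 libraries of tumour Treg from mice of the genotype JMJD1CTregcKO (cKO), in which Jmjd1c was deleted conditionally in Treg. The promoter that drives the deletion and the tumour model are not given in the sources used here, and no label says that the 3 replicates of a group are separate animals, so their spread may be technical.

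H3K9me2 is laid down mainly by the enzymes G9a and GLP and removed by the KDM3 family of demethylases, to which JMJD1C belongs. It is known as a mark of silent chromatin that lies in broad domains over gene-poor sequence and is usually low at active promoters. In Treg the accessible regulatory elements include those of Foxp3, the factor that defines the lineage, and of the genes it acts on with other T cell factors. A covered percent counts only stretches that a peak caller found to stand out from their own neighbourhood, so it describes local enrichment of tags and not the total amount of the mark. The peaks were called without an input library. Whether those at open sites reflect the mark or signal that does not depend on the antibody was not tested.

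H3K9me2 coverage in WT tumour Treg was not lowest at the open sites themselves but in the sequence around them. Within 0.5 kb of an open-site centre, 2.83% of the sequence was covered in WT1, 5.79% in WT2 and 4.68% in WT3. At 0.5-1 kb the values were 1.55, 3.33 and 2.61%, and at 1-2 kb, called the shoulder here, 1.53, 2.93 and 2.36%. Each library was thus lowest in the shoulder, and each covered more of the centre than of the ring next to it. Coverage climbed back to 2.17, 3.40 and 2.84% at 2-5 kb and to 3.01, 3.94 and 3.35% at 5-10 kb, called the near flank. It reached 4.14, 4.75 and 4.07% at 10-50 kb. Beyond 50 kb, where 61.3% of the territory lay, it was 4.19, 4.02 and 3.28%, against 3.9, 4.14 and 3.43% over the autosomes as a whole.

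In steps of 100 bp the centre and the trough were sharper. The first 100 bp from the centre were covered to 3.57% in WT1, 6.98% in WT2 and 5.68% in WT3. The lowest step lay at 1300 to 1400 bp in WT1 and WT3 and at 1200 to 1300 bp in WT2, with 1.42% in WT1, 2.30% in WT3 and 2.81% in WT2. In every WT library the last step before 10 kb was still above that low point, at 3.14, 4.22 and 3.67%.

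**Figure D1:**
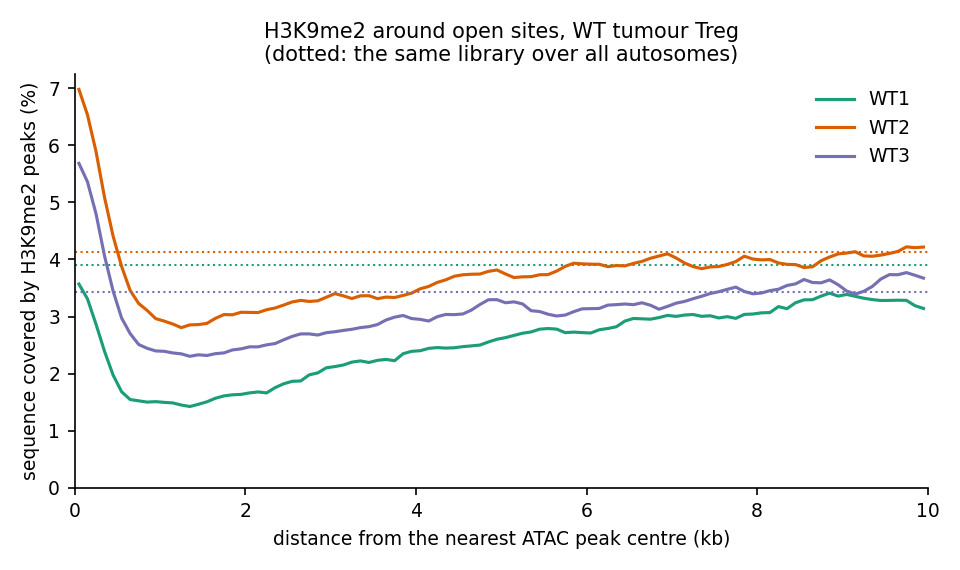
Percent of sequence covered by H3K9me2 peaks in 100 bp steps against the distance in kb from the nearest ATAC peak centre, for the 3 WT tumour Treg libraries (solid lines), with each library's value over the autosomes as a dotted line. All 3 lines start high, fall to a low point between 1200 and 1400 bp and rise again towards 10 kb, and WT1 runs below the other libraries throughout.

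The contrast between centre and shoulder was positive and similar in the 3 libraries. Coverage within 0.5 kb was 1.85 times that at 1-2 kb in WT1, 1.98 times in WT2 and 1.98 times in WT3, a mean log2 ratio of 0.95 ± 0.055 (SD, n = 3). It was above 0 in 3 of 3 libraries, with an exact two-sided sign-flip permutation p of 0.25, the smallest that 3 libraries can give. Adjusted by Benjamini-Hochberg over the 14 comparisons made here, that p is 0.5, so no comparison within WT could pass 0.05. Within each library the ratio was positive on all 19 autosomes, from 0.34 (chromosome 15) to 1.31 in WT1, 0.68 to 1.28 in WT2 and 0.68 to 1.29 in WT3 on the log2 scale. This pair of distances was chosen after the profile had been seen.

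The trough itself was also present in each library and on each autosome. Coverage at 1-2 kb was 0.368 times that at 10-50 kb in WT1, 0.616 times in WT2 and 0.58 times in WT3 (mean log2 ratio -0.98 ± 0.41, SD, n = 3, exact sign-flip permutation p = 0.25, adjusted 0.5). WT1 had the deepest trough. This comparison too was added after the profile had been seen, and it was -0.74 without WT1.

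Whether open sites were richer or poorer in H3K9me2 than distant sequence depended on the library. The log2 ratio of coverage within 0.5 kb to that beyond 50 kb was -0.57 in WT1, 0.53 in WT2 and 0.51 in WT3. WT1 was therefore 0.675 times, and WT2 and WT3 1.44 and 1.43 times, as covered at open sites as far from them. The mean of 0.16 ± 0.63 (SD, n = 3) lay inside the spread between libraries (exact sign-flip permutation p = 1, adjusted 1). It was 0.52 without WT1, -0.03 without WT2 and -0.02 without WT3. Against the near flank the log2 ratios were -0.09, 0.55 and 0.48, a mean of 0.31 ± 0.35 (exact sign-flip permutation p = 0.5, adjusted 0.636), or 0.52 without WT1 and 0.19 and 0.23 without WT2 and WT3. On single autosomes the ratio to distant sequence was positive on 1 of 19 in WT1, the exception being chromosome 13, and on 19 of 19 in WT2 and in WT3. The libraries held 29229071, 28567199 and 29577405 tags. What sets WT1 apart was not tested.

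**Figure D2:**
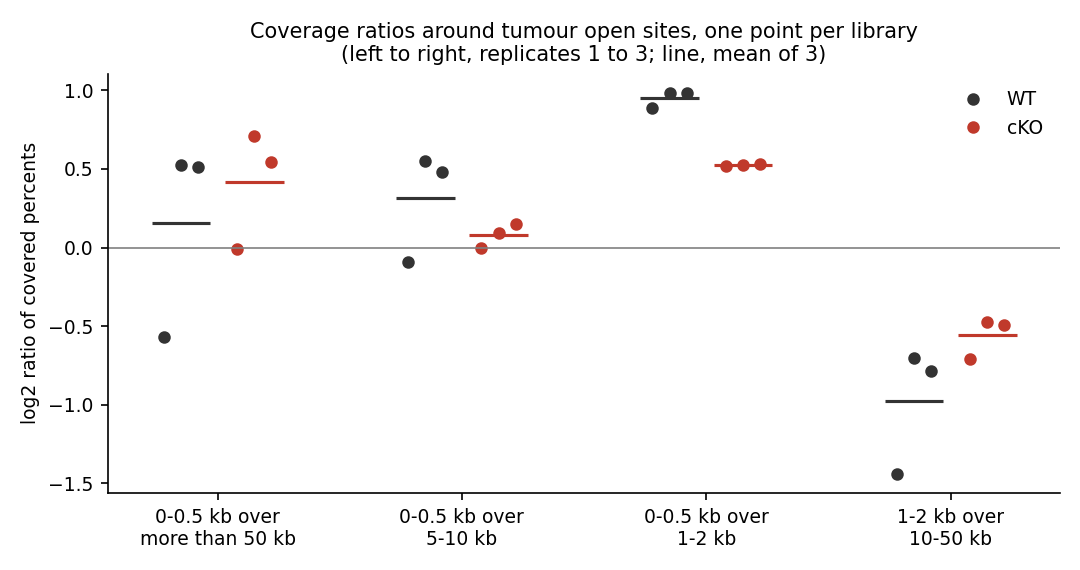
Log2 ratios of covered percents for 4 pairs of distances, one point per library, WT in black and cKO in red, with replicates 1 to 3 from left to right and the mean of 3 as a line. The ratio of 0-0.5 kb to 1-2 kb is positive in all libraries and higher in WT than in cKO, while WT1 lies below 0 for the ratio to sequence over 50 kb away and the other WT libraries above it.

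The H3K9me2 peaks at open sites were small and weak by the authors' own values. Within 0.5 kb lay the centres of 1302, 2603 and 2117 H3K9me2 peaks in WT1, WT2 and WT3, or 48.4, 96.7 and 78.7 per Mb. Their median length was 500 bp in all 3 libraries, the window size of the caller. Their median score was 5.5, 6 and 5.5 tags, against a tag threshold of 5 in the file headers, and 69.7, 68.2 and 73.7% of them scored 6 or less. Beyond 50 kb the median length was 655, 651 and 664 bp, the median score was 11 in all 3 libraries, and only 9.93, 12.8 and 14.1% scored 6 or less. The fold over the surrounding 10 kb ran the other way, with a median of 4.95, 4 and 4.3 at open sites and 2.31, 2.35 and 2.36 beyond 50 kb. Peaks at open sites thus held few tags and stood out from a neighbourhood that held fewer still. No listed peak has a fold below 2.01 or a caller's p-value above 0.0496 over those 10 kb. A peak of few tags can meet such limits only in sparse surroundings, so a high fold at a low score largely follows from them. Peaks in the shoulder had the same median length of 500 bp, median scores of 5.5 in each library and median folds of 4.04, 3.87 and 3.98.

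Splitting each list at its median score, an addition made after the data had been seen, parted the profile into 2 unlike shapes. Scores were lower at open sites than beyond 50 kb, so the direction of centre over distant sequence in each part largely follows from the split. Those ratios restate the score difference, and their p-values add no separate support. The 50% of peaks with the higher scores, from 9.5 tags upward in WT1 and 8 in WT2 and WT3, covered 0.226, 0.56 and 0.456% within 0.5 kb. They covered 0.184, 0.276 and 0.26% at 1-2 kb and 2.99, 3.19 and 2.61% beyond 50 kb. At open sites these stronger peaks were thus 0.076, 0.176 and 0.175 times as dense as in distant sequence, a mean log2 ratio of -2.92 ± 0.70 (SD, n = 3, exact sign-flip permutation p = 0.25). All 3 libraries were low there, WT1 the lowest.

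The 50% with the lower scores showed the reverse. They covered 2.6, 5.23 and 4.22% within 0.5 kb, 1.34, 2.65 and 2.1% at 1-2 kb, and 1.19, 0.828 and 0.671% beyond 50 kb. Open sites held 2.18, 6.31 and 6.29 times the coverage of distant sequence, a mean log2 ratio of 2.14 ± 0.88 (SD, n = 3, exact sign-flip permutation p = 0.25). WT1 had the smallest ratio here, but it was above 1 as in WT2 and WT3. The direction of the ratio to distant sequence thus depended on the score of the peaks kept, as the score difference between open sites and distant sequence entails. It also changed with their fold in WT1. With peaks of fold 3 or more over their surroundings, a setting added after the data had been seen, the log2 ratio was 1.96, 2.89 and 2.80, above 0 in all 3 libraries. The median fold was above 3 at open sites and below 3 beyond 50 kb, so this direction too largely follows from the cut. The centre exceeded the shoulder in both classes: the ratio was 1.23, 2.03 and 1.75 for stronger and 1.94, 1.97 and 2.01 for weaker peaks. The shoulder stayed below 10-50 kb in both as well, at 0.138, 0.171 and 0.174 times for stronger and 0.479, 0.846 and 0.816 times for weaker peaks.

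**Figure D3:**
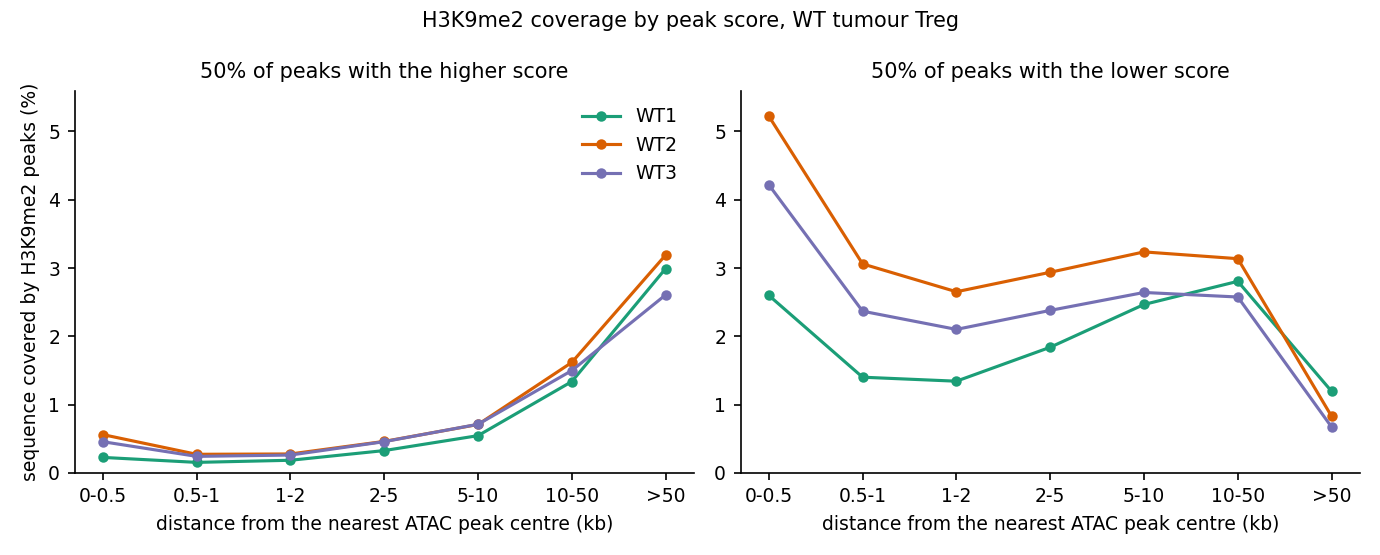
Percent of sequence covered by the 50% of H3K9me2 peaks with the higher (left) and lower (right) authors' score in each WT library, against the distance in kb from the nearest ATAC peak centre. Stronger peaks cover under 0.6% within 0.5 kb and 2.61 to 3.19% beyond 50 kb, while weaker peaks cover 2.6 to 5.23% within 0.5 kb and 0.671 to 1.19% beyond 50 kb.

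Few single open sites were inside an H3K9me2 peak, and few of those in more than 1 library. The centre lay in a peak at 977 sites in WT1 (3.62%), 1910 in WT2 (7.07%) and 1555 in WT3 (5.76%). In 0 of the 3 WT libraries were 22999 sites (85.1%) covered, in 1 library 3613 (13.4%), in 2 libraries 371 (1.37%) and in all 3 libraries 29 (0.107%). The share of sites in all 3 libraries was 7.29 times the product of the shares of the single libraries. Of the sequence within 0.5 kb that WT1 covered, 14.6% was also covered in WT2, and 7.14% of that in WT2 was also covered in WT1. Beyond 50 kb these shares were 13.6 and 14.2%, so a low overlap of the lists was not particular to open sites. The base pairs shared by WT1 and WT2 were 2.53 times the product of their covered percents within 0.5 kb and 3.36 times at 1-2 kb. For WT1 and WT3 these were 2.53 and 3.02 times, and for WT2 and WT3 2.11 and 2.13 times. Most sites with a peak at their centre thus had it in 1 library only, and the profile is an average over many sites.

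Open sites near gene ends were less covered by H3K9me2 peaks than the others. Of the 27012 sites, 8997 (33.3%) were within 1.0 kb of a gene end and 18015 were not. Within 0.5 kb the gene-end sites were covered to 2.30, 4.67 and 3.94% in WT1, WT2 and WT3, and the other sites to 3.09, 6.34 and 5.04%. Gene-end sites were lower in 3 of 3 libraries, by a mean log2 ratio of -0.41 ± 0.046 (SD, n = 3, exact sign-flip permutation p = 0.25, adjusted 0.5). The neighbourhood differed in the same way, with 2.39, 3.54 and 2.96% at 5-10 kb of gene-end sites against 3.39, 4.19 and 3.59% for the others. Once each class was divided by its own near flank, the log2 difference between classes was 0.08, -0.20 and -0.08, a mean of -0.07 ± 0.14 (exact sign-flip permutation p = 0.5, adjusted 0.636), with WT1 on the other side of 0. Beyond 50 kb the classes were close, at 4.21, 3.97 and 3.23% against 4.17, 4.05 and 3.31%. Both classes had the trough: the shoulder was at 1.10, 2.68 and 2.04% for gene-end and 1.74, 3.06 and 2.53% for other sites. Among stronger peaks alone the gap within 0.5 kb was wider, at 0.092, 0.423 and 0.276% for gene-end and 0.293, 0.628 and 0.546% for other sites.

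**Figure D4:**
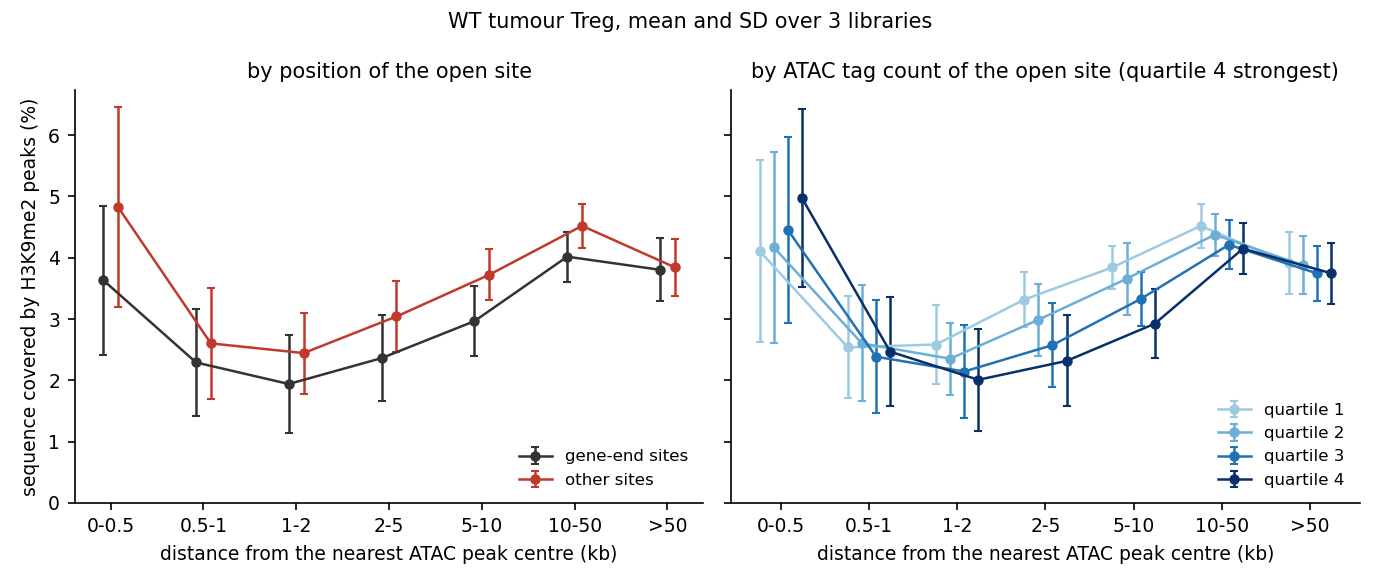
Percent of sequence covered by H3K9me2 peaks against the distance in kb from the nearest ATAC peak centre, as mean and SD over the 3 WT libraries, for gene-end and other open sites (left) and for quartiles of ATAC tag count (right). Gene-end sites lie below other sites up to 50 kb, and the strongest quartile has the highest centre and the lowest shoulder and flank of the 4.

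The more accessible an open site was, the more pointed its H3K9me2 profile. Quartiles of the ATAC Normalized Tag Count, each of 6753 sites, ended at 13.7, 24.3, 49.6 and 2414.6 tags. Within 0.5 kb, the weakest quartile was covered to 2.63, 5.59 and 4.11% in WT1, WT2 and WT3 and the strongest to 3.35, 6.18 and 5.40%. The strongest quartile was higher in 3 of 3 libraries (mean log2 ratio 0.30 ± 0.13, SD, n = 3, exact sign-flip permutation p = 0.25, adjusted 0.5). In the shoulder the order turned, with 1.93, 3.23 and 2.59% for the weakest and 1.10, 2.72 and 2.20% for the strongest quartile. At 5-10 kb it was 3.61, 4.25 and 3.67% against 2.36, 3.48 and 2.93%. Relative to its own near flank, the centre of the strongest quartile was thus 1.95, 1.35 and 1.65 times that of the weakest (mean log2 difference 0.70 ± 0.27, exact sign-flip permutation p = 0.25, adjusted 0.5). Relative to the shoulder it was 2.24, 1.31 and 1.54 times, a comparison added after the data had been seen (mean log2 difference 0.73 ± 0.40).

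At the centre, coverage rose with accessibility for the weaker H3K9me2 peaks and not for the stronger ones. Weaker peaks covered 2.28, 4.82 and 3.63% within 0.5 kb of the weakest quartile and 3.18, 5.61 and 4.97% of the strongest. Stronger peaks covered 0.355, 0.767 and 0.477% of the weakest quartile and 0.176, 0.572 and 0.427% of the strongest, so they covered less of the latter in each library (mean log2 ratio -0.53). In WT2, quartiles 2 and 3 were lower still, at 0.459 and 0.441%. Relative to near flank and shoulder, the centre in stronger peaks too was higher in the strongest than in the weakest quartile (mean log2 difference 0.84 and 1.28).

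Strong sites were more often at gene ends, with a share of 13.0% in the weakest and 58.8% in the strongest quartile, so both splits were crossed. Among sites away from gene ends, coverage within 0.5 kb went from 2.79, 5.82 and 4.33% in the weakest to 4.08, 7.58 and 6.03% in the strongest quartile. Among gene-end sites it went from 1.56, 4 and 2.68% to 2.85, 5.20 and 4.95%. Coverage was higher in the strongest quartile in every library in both classes, and lower at gene ends in every library in both quartiles. By the mean of the 3 libraries, the highest of the 8 crossed classes was the strongest sites away from gene ends (5.90%) and the lowest the weakest sites at gene ends (2.74%).

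Of the 10 strongest gene-end sites, 4 had their centre inside an H3K9me2 peak in a WT library and 6 did not, where 88.2% of all gene-end sites and 83% of the strongest quartile did not. The 10 lay at Hjurp (which loads the centromeric histone CENP-A), AW549877, Anxa5 (a phosphatidylserine-binding annexin), Dnpep (an aminopeptidase), Opn3 (an opsin), Lnpep (an aminopeptidase), Khsrp (an RNA-binding protein of splicing and mRNA decay), Limk1 (a kinase of the actin cytoskeleton), Pitrm1 (a mitochondrial protease) and Zbtb20 (a zinc-finger repressor), with 498.1 to 373.2 ATAC tags. The centre was inside a WT1 peak at Hjurp, Pitrm1 and Zbtb20 and inside a WT2 peak at Opn3. The other 6 centres were in no WT peak, and 0 of the 10 were inside a peak in more than 1 WT library.

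Sites away from gene ends held the most extreme values. The site with the highest tag count of all, at chr2:98666610-98666932 (mm10), had 2414.6 ATAC tags and lay 1035099 bp from the nearest protein-coding gene, Lrrc4c. Of its central 1000 bp, 83.7, 90.3 and 92.6% were covered in WT1, WT2 and WT3. A neighbouring site at chr2:98662538-98662860, had 1506.6 tags and was covered to 75% in WT1, 0% in WT2 and 75% in WT3. Next in rank, the site at chr6:103649057-103649379 near the adhesion gene Chl1, had 501.2 tags and was covered to 0, 75.8 and 93.1%. The first chromosome 2 site was high in all 3 libraries, the other 2 sites in 2 of 3. No list of regions with excess signal was applied, and whether these sites lie in repeated sequence was not tested, so their tags and their coverage need not mean open or marked chromatin.

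Of the 29 sites inside an H3K9me2 peak in all 3 WT libraries, 26 were away from gene ends and 3 at them, where 33.3% of all open sites were at gene ends. The 26 were 0.144% of the sites away from gene ends and the 3 were 0.033% of the gene-end sites. Besides the first chromosome 2 site, the 10 with the most ATAC tags included chr9:35305302-35305624, 29506 bp from Rpusd4, with 422.8 tags and coverage of 76.9, 82.3 and 75.2%. They also included chr12:3109809-3110131, 137458 bp from Rab10, at 283.3 tags with 75.2, 75.2 and 62.8%. The same limit holds for these strong sites far from genes. A site 61142 bp from Axin2, a feedback inhibitor of Wnt signalling, at chr11:109011764-109012086, was almost wholly covered, to 95.2, 100 and 99.9%. Sites near Moxd2, Susd1, Glrx5 (an iron-sulphur cluster factor) and Mgat5 (an N-glycan branching enzyme) had 50 to 100% in each library. A value of 50% is that of a single 500 bp peak lying wholly inside the window.

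The promoters at the 3 gene-end sites covered in all 3 WT libraries are shown because they are the only gene-end sites with that property. Each is the 250 bases before the annotated start from RefSeq GRCm38.p6 (mm10), written 5′ to 3′ on the strand of the gene, with CpG dinucleotides in capitals. Prdx3 encodes a mitochondrial peroxiredoxin that removes hydrogen peroxide, at chr19:60874539-60874788 on the minus strand. Fbxo48 encodes an F-box protein, at chr11:16951125-16951374 on the plus strand. Psmf1 encodes an inhibitor of the proteasome, at chr2:151741311-151741560 on the minus strand.
Prdx3: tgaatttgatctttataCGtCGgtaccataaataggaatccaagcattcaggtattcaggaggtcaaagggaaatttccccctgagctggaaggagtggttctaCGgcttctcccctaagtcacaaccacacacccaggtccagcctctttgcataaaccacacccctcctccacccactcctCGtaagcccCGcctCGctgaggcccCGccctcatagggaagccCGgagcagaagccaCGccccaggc
Fbxo48: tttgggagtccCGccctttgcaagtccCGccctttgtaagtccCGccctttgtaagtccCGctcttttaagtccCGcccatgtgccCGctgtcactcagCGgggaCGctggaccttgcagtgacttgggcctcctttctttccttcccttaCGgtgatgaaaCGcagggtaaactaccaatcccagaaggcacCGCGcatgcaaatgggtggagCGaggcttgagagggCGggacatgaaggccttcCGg
Psmf1: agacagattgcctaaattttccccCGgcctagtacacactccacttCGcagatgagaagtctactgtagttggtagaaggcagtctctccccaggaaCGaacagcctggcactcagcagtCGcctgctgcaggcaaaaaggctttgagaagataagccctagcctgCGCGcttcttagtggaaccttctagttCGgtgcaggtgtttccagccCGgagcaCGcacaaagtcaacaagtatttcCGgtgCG
The central 1000 bp of the open site were covered to 50% in WT1, WT2 and WT3 at Prdx3, with 161.6 ATAC tags. At Fbxo48 they were covered to 64.3, 63.9 and 50%, with 123.1 tags, and at Psmf1 to 53.8, 88.6 and 82.7%, with 34.5 tags. The sequences hold 9, 15 and 11 CpG and are 55.6, 58.8 and 53.2% G or C.

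For contrast, the promoters at the 3 strongest gene-end sites are shown, of which the first was inside a peak in WT1 and the others in 0 WT libraries. Hjurp lies at chr1:88277580-88277829 (minus strand), AW549877 at chr15:3995747-3995996 (minus strand) and 1810062G17Rik, the promoter in the table that overlaps the Anxa5 site, at chr3:36475687-36475936 (plus strand).
Hjurp: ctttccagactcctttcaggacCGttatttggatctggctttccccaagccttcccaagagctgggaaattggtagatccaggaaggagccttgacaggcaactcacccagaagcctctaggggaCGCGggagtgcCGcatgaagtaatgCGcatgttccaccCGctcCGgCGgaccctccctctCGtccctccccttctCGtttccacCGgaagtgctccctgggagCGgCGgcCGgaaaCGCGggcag
AW549877: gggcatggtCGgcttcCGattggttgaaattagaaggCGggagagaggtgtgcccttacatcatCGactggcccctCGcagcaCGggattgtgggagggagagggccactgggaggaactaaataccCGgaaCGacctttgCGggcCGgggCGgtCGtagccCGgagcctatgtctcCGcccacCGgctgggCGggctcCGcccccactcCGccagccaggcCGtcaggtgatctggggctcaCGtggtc
1810062G17Rik: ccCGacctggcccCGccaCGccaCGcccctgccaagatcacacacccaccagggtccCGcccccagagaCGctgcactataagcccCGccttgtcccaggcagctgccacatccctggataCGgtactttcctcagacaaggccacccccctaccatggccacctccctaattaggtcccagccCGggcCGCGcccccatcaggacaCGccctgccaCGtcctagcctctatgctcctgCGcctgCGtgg
These hold 16, 20 and 15 CpG and are 60.8, 66 and 67.6% G or C. The central 1000 bp at Hjurp were covered to 54.3% in WT1 and 0% in WT2 and WT3, and those at AW549877 and the Anxa5 site to 0% in all 3.

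Starts of protein-coding genes could be oriented with a promoter table that gave the strand for 16457 autosomal genes, of which 7946 had an open site within 1.0 kb of the start and 6791 had none within 10 kb. The 2 groups had opposite shapes. Starts with an open site were covered most in the 500 bp before the start, to 2.96, 5.55 and 4.56% in WT1, WT2 and WT3. In the 500 bp after the start they were at 1.53, 3.55 and 2.96%, and 1000 to 2000 bp into the gene at 0.66, 2.47 and 2.03%. The same distance upstream, 2000 to 1000 bp before the start, stood at 1.49, 3 and 2.19%. The sequence into the gene was thus less covered than that before it in each library. Starts without an open site were instead lowest around the start, at 2.47, 3.29 and 2.54% in the 500 bp before and 2.19, 2.86 and 2.17% after it. Between 5000 and 2000 bp upstream they stood at 4.17, 4.53 and 3.63%. The oriented profile was added after the data had been seen and has no test.

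**Figure D5:**
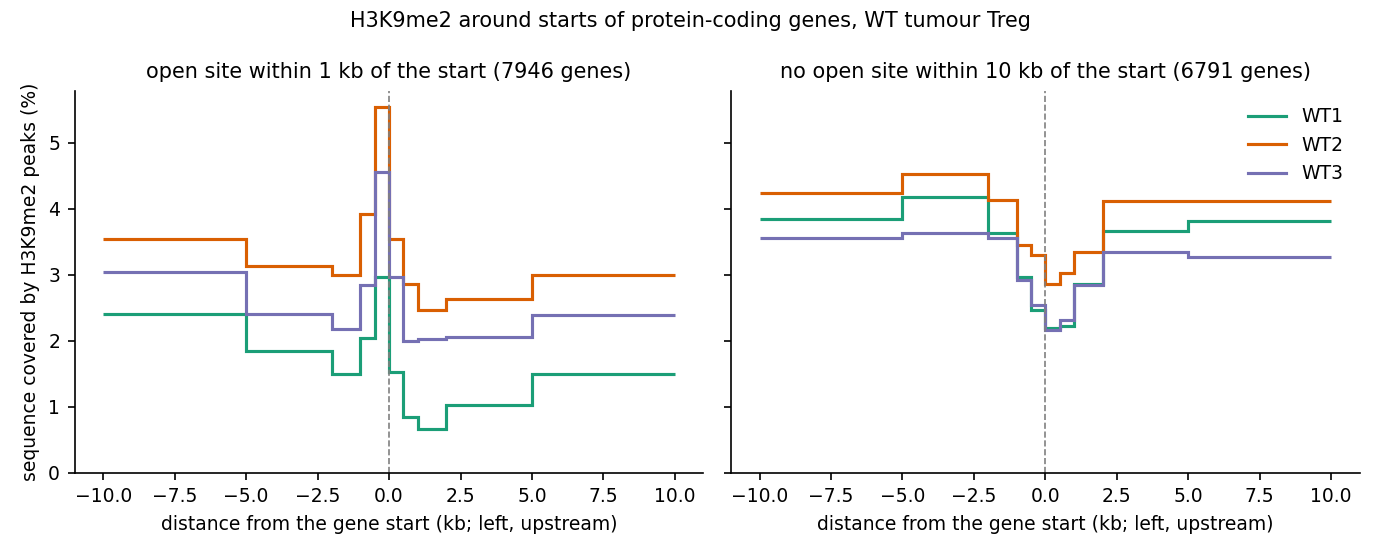
Percent of sequence covered by H3K9me2 peaks in each WT library against the distance in kb from the start of protein-coding genes (negative is upstream), for genes with an open site within 1.0 kb of the start (left, 7946 genes) and with none within 10 kb (right, 6791 genes). Genes with an open site have a maximum just before the start and low values 0.5 to 2 kb into the gene, and genes without one have a minimum around the start.

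Pooling starts and 3′ ends of genes gave no steady difference. Within 1.0 kb of gene ends with an open site, coverage was 1.77, 3.88 and 3.10% in WT1, WT2 and WT3, and at gene ends with none within 10 kb it was 2.85, 3.42 and 2.80%. The log2 ratio was -0.68, 0.18 and 0.15, a mean of -0.12 ± 0.49 (SD, n = 3, exact sign-flip permutation p = 1, adjusted 1), and 0.16 without WT1. Split by score, the 2 classes of peaks again went in opposite directions, a description with the same limit. In the 1000 bp around gene starts, stronger peaks covered 0.115, 0.428 and 0.293% with an open site and 1.21, 1.45 and 1.10% without one. Weaker peaks covered 2.13, 4.12 and 3.47% with and 1.12, 1.63 and 1.25% without.

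Base composition divided the promoters further, in a description added after the data had been seen. CpG were counted in the 300 bases of each promoter, with a median of 22 in promoters with an open site and 4 in those without. The 4172 promoters with an open site and 22 or more CpG were covered to 1.19, 2.53 and 2.56% within 500 bp of the start. Those with 7 to 21 CpG stood at 3.44, 6.72 and 5.13% (3312 promoters) and those with 6 or fewer at 3.20, 7.15 and 4.81% (462 promoters). Promoters without an open site ran from 3.15, 3.66 and 2.94% at 6 or fewer CpG to 0.337, 0.586 and 1.01% at 22 or more. The promoters richest in CpG were thus the least covered in every library with or without an open site. Within each CpG class the promoters with an open site were the more covered in each library, though barely so in WT1 at 6 or fewer CpG (3.20 against 3.15%). The classes did not equalise CpG fully: from the poorest to the richest class, the median was 4, 16 and 29 with and 2, 11.5 and 30 without an open site.

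Motifs in the same 300 bases differed between the groups as follows, counted on both strands. GGGCGG (the GC box) was in 68.8% of promoters with an open site, 25.2% of those without and 47.3% of all 16457. TATAAA was in 6.13, 22.4 and 13.5%, and TGANTCA, the letters of the AP-1 site, in 4.29, 10.3 and 7.12%. CCGGAAGT, a longer form of the ETS site, was in 10.2, 0.913 and 5.44%, and the shorter GGAA inside it was in 95.5, 95.5 and 95.6%. TGACGTCA, the cAMP response element, was in 3.94, 0.972 and 2.4%, and CCAAT in 40.6, 38.9 and 39.1%.

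Open sites lay at the listed T cell and Treg identity genes with 2 exceptions, but also at every listed ubiquitous gene. An ATAC peak lay within 5 kb of 20 of 20 T cell genes and 22 of 24 Treg identity genes, against 61.5% of all autosomal protein-coding genes. The ubiquitous genes stood at 20 of 20, so having a peak was not particular to T cell genes. Foxp3 itself, on the X chromosome and so outside the profile, had 2 peaks with 110.3 tags in sum. Ctla4 and Icos, an inhibitory and a costimulatory receptor of Treg, had 0 peaks within 5 kb. Of the genes marking other cells, 6 of 10 for B cells, 7 of 14 for myeloid cells, 4 of 10 for CD8 T and NK cells, 4 of 10 for melanocytes and epithelium, 3 of 10 for stroma and endothelium and 5 of 12 for neurons and glia had a peak. Ms4a1, Lyz2, Cd8a and Cd8b1 were among those with 0. Cd79a (81 tags), Fcer2a (74.4) and Blk (56.2) of the B cell list and Cd68 (128.9) and Spi1 (80.6) of the myeloid list were among those with a peak. Summed ATAC tags were 3982.4 for the 24 Treg identity genes, 2643.9 for the 20 ubiquitous genes and 94.7 to 429.8 for the lists of other cells, which hold 10 to 14 genes. The median per gene was 137 for Treg identity, 130.4 for ubiquitous genes and 0 to 13.5 for the lists of other cells. The part of other cells in the H3K9me2 profile was not tested.

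At Treg identity genes the centre of open sites stood above the shoulder in each library. Their 85 autosomal sites were covered within 0.5 kb to 4.66, 9.21 and 4.78% in WT1, WT2 and WT3 and at 1-2 kb to 1.65, 1.1 and 1.38%, against 2.83, 5.79 and 4.68% and 1.53, 2.93 and 2.36% over all open sites. A centre lay inside a peak at 6, 11 and 6 of the 85 sites, or 7.06, 12.9 and 7.06%, against 3.62, 7.07 and 5.76% of all open sites. The contrast thus rests on few peaks. The list was chosen with results of these data known, and its values are a description.

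By member, 7 of the 21 autosomal Treg identity genes with an open site had no H3K9me2 peak within 0.5 kb of it in any WT library, 8 had one in 1 library, 4 in 2 and 2 in all 3. Over all 12715 autosomal genes with an open site the shares were 63, 27.8, 7.52 and 1.65%, but they depend on the number of sites: 75.5% of genes with 1 site and 5.04% of those with 10 or more had a peak in 0 libraries. A peak in all 3 libraries was found at 7.70% of the genes with 5 to 9 sites and at 35.3% of those with 10 or more. The 2 members with a peak in all 3 libraries were Ikzf2 and Entpd1. Ikzf2, which encodes the Treg factor Helios, had 14 open sites and coverage within 0.5 kb of 8.08, 5.12 and 4.46%. Entpd1, the ectonucleotidase CD39, had 9 open sites and 5.56% in each library. Izumo1r, which encodes the Treg surface marker FR4, had 2 open sites and 0, 36.8 and 55.7%. Tnfrsf18, the receptor GITR, was covered only in WT2, at 27.7%, as were Il2ra and Il2rb, chains of the interleukin-2 receptor, at 30 and 32.4%. Il10, Tgfb1, Ebi3, Nt5e and Tnfrsf9 were among the members at 0 in all 3 libraries. In 0 of the 21 did a single site have its centre inside a peak in all 3 libraries. Over all open sites that share was 0.107%, so a count of 0 among 85 sites says little about these genes.

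The 114 autosomal sites of genes of tumour and effector Treg were covered within 0.5 kb to 0.44, 6.30 and 2.13% and at 1-2 kb to 1.07, 1.62 and 1.14%, so the centre was below the shoulder in WT1 and above it in WT2 and WT3. A centre was inside a peak at 1, 9 and 3 of the 114 sites, or 0.877, 7.89 and 2.63%, against 3.62, 7.07 and 5.76% of all open sites. Of 23 autosomal members with an open site, 11 were at 0 in all 3 libraries, among them Ccr8, Batf, Prdm1 and Lag3, and 0 were covered in all 3. Over all autosomal genes with an open site these shares were 63 and 1.65%. Rora, which had the most open sites (19), was covered to 0, 9.70 and 2.63%. Maf, with 1 open site, was covered to 0, 73.1 and 0%, and Tnfrsf1b, the receptor TNFR2, with 8 sites, to 0, 5.75 and 6.25%. With 1 to 19 open sites a gene, these values rest on 1 or a few peaks of 500 bp.

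T cell genes shared by all lineages had 88 open sites, covered within 0.5 kb to 1.72, 4.91 and 4.37% and at 1-2 kb to 1.03, 3.9 and 1.70%. The centre was the higher of the pair in each library. In all 3 libraries 8 of 20 members were at 0 within 0.5 kb, against 63% of all autosomal genes with an open site and 54.4% of those with 2 to 4 sites. Naive and lymphoid homing genes, with 36 sites, were covered to 0, 0.269 and 5.45% within 0.5 kb and to 0.634, 3.94 and 3.16% at 1-2 kb, so their centre was below the shoulder in WT1 and WT2 and above it in WT3.

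The contrast around open sites was compared with that in cKO Treg, with the same WT open sites as reference. Coverage within 0.5 kb was 5.36, 6.24 and 4.81% in cKO1, cKO2 and cKO3, and at 1-2 kb it was 3.75, 4.34 and 3.33%. The shoulder was thus more covered in each cKO library than in any WT library, while the centre values of both groups overlapped. Over the autosomes the cKO lists covered 5.47, 4.58 and 3.73%. Divided by each library's own autosomal value, the shoulder stood at 0.685, 0.949 and 0.892 in cKO and 0.392, 0.708 and 0.688 in WT, so the groups then overlapped. The cKO lists held 43.9, 30.8 and 24.4% of the peaks named in their headers, against 32.4, 31.8 and 25.4% in WT, and came from 24774509, 30313851 and 26526146 tags. The ratio of centre to shoulder was 1.43, 1.44 and 1.44 in cKO, a mean log2 ratio of 0.52 ± 0.0065 against 0.95 ± 0.055 in WT (SD, n = 3 each). The groups did not overlap, and the difference of -0.43 had an exact two-sided permutation p of 0.1, the smallest possible for 3 against 3, and 0.5 after adjustment. This comparison was added after the data had been seen. With the stronger 50% of peaks alone the groups overlapped, at 0.30, 1.02 and 0.81 in WT and 0.35, 0.31 and 0.52 in cKO (exact permutation p = 0.4). For the 2 other contrasts the groups overlapped: centre to near flank differed by -0.23 (exact permutation p = 0.4, adjusted 0.636) and centre to distant sequence by 0.26 (exact permutation p = 0.5, adjusted 0.636). Without WT1 the latter difference was -0.10. The names in the file headers carry other prefixes for cKO than for WT, so genotype and whatever those prefixes stand for cannot be told apart. The names of cKO1 and cKO3 end in the same number, so these libraries may share a source, and the centre-to-shoulder difference was -0.43 without either.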

How the data were processed

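Peaks were called by the authors in each library alone with HOMER findPeaks, without an input library, per the file headers. The H3K9me2 calls used histone style, a 500 bp window and a tag threshold of 5, and the ATAC call used factor style with 322 bp peaks. Besides HOMER, the tools listed in the submitters' processing notes are Bowtie2 2.4.2, Trim Galore 0.6.6, SAMtools 1.11, Picard and deepTools, and the build is mm10. Per the file headers, the Normalized Tag Count is a signal scaled to a common library total, and the findPeaks score counts tags of its own library. The fold over the surrounding 10 kb and its p-value are the caller's, as deposited by the authors. The deposited H3K9me2 lists of WT hold 32.4, 31.8 and 25.4% of the peaks named in their headers, where the lowest fold is 2.01, the highest p-value 0.0496 and the highest clonal fold 1. No source used here gives the step that removed the rest. The labels' protocol text of the ATAC library names a CUT&Tag kit beside a service company that built the ATAC library.

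H3K9me2 peaks were merged within each library, and covered base pairs were summed by distance to the nearest ATAC peak centre between the first and last peak of each autosome, 2402.6 Mb in all. Gene ends came from the RefSeq GRCm38.p6 gene table (20665 autosomal protein-coding genes, 41237 distinct ends), and strand and start from a promoter table that matched 16457 of them. The library is the unit of every test. Log2 ratios of 3 WT libraries were tested by exact two-sided sign-flip permutation, 3 against 3 libraries by exact two-sided permutation, with Benjamini-Hochberg adjustment over 14 comparisons. Neither can pass 0.05 (smallest p 0.25 and 0.1). Computations used Python 3.11.15, numpy 2.4.6, pandas 2.3.3 and scipy 1.17.1, and the code was tested on simulated peak lists. Named were the 10 open sites with the most ATAC tags at and away from gene ends, the 10 with the most tags inside a peak in all 3 WT libraries, and members of 2 Treg gene lists. These members, the gene lists and the comparisons were chosen with earlier results of these data known. Depth was 28567199 to 29577405 tags per WT H3K9me2 library and 11293674 tags in the ATAC library. Sex chromosomes and the spleen ATAC list entered only as alternatives.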

Additional observations from a re-analysis of the deposited data

How the results depend on the processing

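Each of the 14 comparisons was repeated under 13 to 18 alternative settings. Of the 212 values obtained in all, 190 kept the direction and 22 reversed it, and 7 comparisons reversed under none. The centre over shoulder ratio stayed between 0.71 and 1.2 (log2), the shoulder over 10-50 kb ratio between -2.64 and -0.36, and the gene-end over other ratio at the centre between -1.07 and -0.27. With the stronger 50% of each H3K9me2 list, centre over distant sequence was -2.92, centre over near flank -0.75, the quartile contrast at the centre -0.53 and the gene-end contrast of centre over shoulder 0.26. With lists of equal length, centre over distant sequence was -0.29, its cKO minus WT difference -0.30 and the gene-end contrast of centre over shoulder 0.059. That last contrast, -0.02 in the full data, was also 0.055 from ATAC peak edges, 0.016 with the spleen ATAC list, 0.031 with gene ends taken at 0.5 kb and 0.17 with isolated ATAC sites, and it ran from -0.15 to 0.094 when each library was left out. Gene ends with over without an open site gave 0.19 with 500 bp footprints, 0.023 with the stronger 50% of ATAC peaks, 0.13 with the spleen ATAC list, 0.95 with peaks of fold 3 or more, 0.41 with isolated ATAC sites, and -0.27 to 0.16 on leaving out libraries. The gene-end contrast of centre over near flank was 0.12 with isolated ATAC sites (no other within 20 kb). Leaving out libraries gave -0.027 to 0.52 for centre over distant sequence and -0.10 to 0.47 for its cKO minus WT difference. With peaks of fold 3 or more, a cut that kept a larger share of the peaks at open sites than of distant ones, centre over distant sequence was 2.55. Peaks of fold 3 or more and isolated ATAC sites were alternatives added after seeing the data. The cause of the reversals was not tested.

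With the replicate number as a replicate block, the cKO minus WT differences were 0.26 for centre over distant sequence, -0.23 for centre over near flank and -0.43 for centre over shoulder, with an exact sign-flip p no lower than 0.25. Deviations of each library from the mean of its group were correlated over 2392 windows of 1 Mb, which does not measure how alike the coverage itself was. Same-numbered libraries had correlations of 0.464, 0.186 and 0.08. WT1 and WT2 correlated best with the cKO library of their own number, but WT3 with cKO2 (0.304), so the numbers were not taken to pair the samples. Between 68.2 and 73.7% of the H3K9me2 peaks within 0.5 kb of open sites scored 6 tags or less against the threshold of 5, and whether more depth would change the profile was not tested.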

Other observations

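Genes of the H3K9 methylation machinery had open sites, and the centres of these were less covered than the shoulder. All 19 genes of that list had an open site within 5 kb, against 61.5% of all autosomal protein-coding genes. Among them were Ehmt1 and Ehmt2, which encode GLP and G9a, and Jmjd1c, but not all members lay or remove the mark. The 38 autosomal sites of the list were covered within 0.5 kb to 0, 2.69 and 1.68% in WT1, WT2 and WT3 and at 1-2 kb to 0.065, 5.49 and 3.39%. Over all open sites these values were 2.83, 5.79 and 4.68% and 1.53, 2.93 and 2.36%. A centre lay inside a peak at 0, 1 and 1 of the 38 sites, or 0, 2.63 and 2.63%, against 3.62, 7.07 and 5.76% of all open sites. The contrast thus rests on few peaks. At Jmjd1c the 4 open sites were covered to 0, 0 and 3.38%. At the 40 autosomal open sites of 20 ubiquitous genes the values were 1.61, 3.77 and 2.30%, and 14 of their 18 autosomal members were at 0 in all 3 libraries. The share at 0 was 63% over all autosomal genes with an open site, 75.5% of those with 1 site and 54.4% of those with 2 to 4.

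At the 3′ end of 790 genes with an open site within 1.0 kb, coverage in the surrounding 1000 bp was 1.2, 4.05 and 3.17%, and at that of 10203 genes with none within 10 kb it was 2.95, 3.47 and 3.01%. The same values around gene starts were 2.25, 4.55 and 3.76% with and 2.33, 3.08 and 2.35% without, so with an open site both were lower in WT1 and higher in WT2 and WT3. A difference between starts and ends was not tested. Inside the gene, between 5000 and 2000 bp before such an end, it was 0.679, 2.41 and 1.80% with and 2.88, 3.51 and 2.94% without an open site.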
